A study of Mus musculus with 6 samples.

Results

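The genes described here encode matrix glycoproteins, laminins and the lysyl oxidases that cross-link the matrix. They were chosen by gene symbol from a list of 50 names, of which 48 have a row among the 16000 genes of the deposited count table. Mfap2 and Lama1 were not analysed here. The RNA came from NIH3T3 cells, an immortalised line of mouse embryonic fibroblasts, in 3 wild-type libraries and 3 libraries of the genotype Rai16 KO. All 6 cultures were under serum starvation, so neither group is a serum-fed control. The comparison asked how expression in RAI16 knockout cells differs from wild type when serum is withdrawn. The sources used here do not say how the knockout was made, how many clones it covers or whether libraries of 1 group were separate cultures. The p-values therefore rest on a library-to-library spread that could be technical alone.

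The extracellular matrix of a fibroblast is built from families with different tasks. Fibronectin, periostin and tenascins are adhesive or modulating glycoproteins between cells and collagen. Elastic fibres consist of an elastin core on a scaffold of fibrillin microfibrils, with fibulins and emilins as assembly proteins, and lysyl oxidases cross-link both elastin and collagen. Laminins are trimers of an alpha, a beta and a gamma chain that form the sheet of the basement membrane, and nidogen, perlecan and agrin tie that sheet to other components. Versican and aggrecan are large chondroitin sulfate proteoglycans that bind hyaluronan, a glycan made by the Has enzymes and bound at the cell surface by CD44.

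Library totals ran from 16741607 to 18368760 counts. The targeted gene, listed as Fam160b2, had 25.4, 22.5 and 23.6 CPM (counts scaled to a common library total, by TMM) in wild type and 22.3, 21.5 and 22.0 CPM in the libraries labelled knockout. The difference did not pass the test (−0.12 ± 0.075 on the log2 scale, adjusted p = 0.184, edgeR's quasi-likelihood test), and without knowing which part was edited this count is no check of the label. The labelled cell type was checked on 9 fibroblast markers, which were all tested and whose summed level ran from 13370 to 13440 CPM in wild type and from 13590 to 14140 CPM in knockout. That sum joins opposite changes, since 4 of the 9 were higher in knockout and 3 lower, such as Col1a1 (894 ± 20.7 to 1400 ± 45.0 CPM, SD, n = 3 each) and Col3a1 (1242 ± 15.3 to 399 ± 13.4 CPM). Summed epithelial, endothelial and leukocyte markers were low but higher in every knockout library. Epithelial markers ran from 2.04 to 2.53 CPM in wild type and 4.67 to 5.89 CPM in knockout. Endothelial ones ran from 2.30 to 2.88 and 4.61 to 7.19 CPM, and leukocyte ones from 3.96 to 4.19 and 5.12 to 6.10 CPM. Of these, Krt8, Cdh5 and Cd68 were called higher, and the part of these markers in the results was not tested. Summed muscle markers were also higher in knockout, while neural and glial markers and chondrocyte and osteoblast markers were lower, with values given below.

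Knockout replicate 2 stood apart from its group by gene length, and most of these matrix genes are long. Gene length was derived from the deposited counts and FPKM (fragments scaled by gene length and by library total). Over the 1198 longest of the 11972 genes tested (8918 bp and above), the median log2 difference of knockout replicate 2 from the other knockout libraries was −0.33, and over the 2993 shortest (up to 2213 bp) it was 0.23. The wild-type libraries differed from each other by at most 0.027 in size in any such length class. The matrix genes tested had a median length of 5532 bp against 3578 bp over all genes tested, and 22 of the 26 members above 4000 bp were lower in knockout replicate 2 than in both other knockout libraries, against 0 of the 11 shorter ones. Across these 37 genes, which share the libraries, Spearman's rho between length and the deviation of replicate 2 was −0.87. Length was not the only departure of knockout replicate 2. Genes tested took 99.93% of its counts, against 99.96% in each other library. Some genes below the filter were counted in it alone, such as Actc1 (31 counts), Kdr (7) and Lyve1 (5). The cause of these departures was not tested. Values without this library are given beside some of the results that it moved, not beside all of them.

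**Figure D1:**
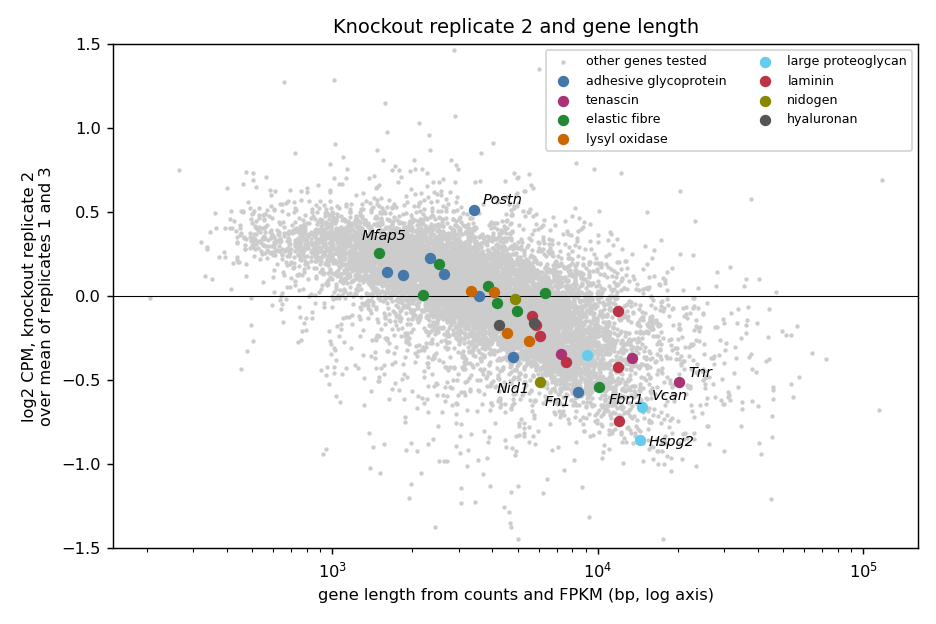
Gene length in bp (horizontal, log axis) against the log2 CPM of knockout replicate 2 over the mean of knockout replicates 1 and 3 (vertical) for each gene tested, with matrix genes coloured by class, other genes grey and 8 genes beyond 1.5 in size outside the axis. Long matrix genes such as Hspg2, Vcan and Tnr lie below 0 and short ones such as Mfap5 lie above it.

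Matrix genes moved in both directions, with elastic fibre and lysyl oxidase genes mostly higher and adhesive glycoprotein genes mostly lower. Of the 48 genes in the table, 37 passed the filter on low counts. Of these 37, 14 were higher and 13 lower in knockout at an adjusted p under 0.05 (edgeR's quasi-likelihood test, adjusted over all genes tested), and 10 did not pass. That is 73.0% of the members against 59.6% of all genes tested, of which 30.5% were higher and 29.2% lower. The members were chosen with earlier results of these data known, so this comparison is no independent test. A change of at least 2-fold was called for 11 members, 7 higher and 4 lower, where 4.32% of all genes tested were called at that size in the higher and 6.53% in the lower direction. The median log2 fold change was 0.04 over the members and 0.0028 over all genes tested, and the median size was 0.60 against 0.32. Groups did not overlap in CPM for 29 members, against 67.6% of all genes tested. Without knockout replicate 2 all 27 called members were called again in the same direction, no fold moved by over 1.5 times, and 4 more members passed (Sparc, Hspg2, Lamb1 and Lamb2, each higher), which made 18 higher and 13 lower. In these bulk libraries, fewer cells that use a gene and less RNA per cell cannot be told apart.

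**Figure D2:**
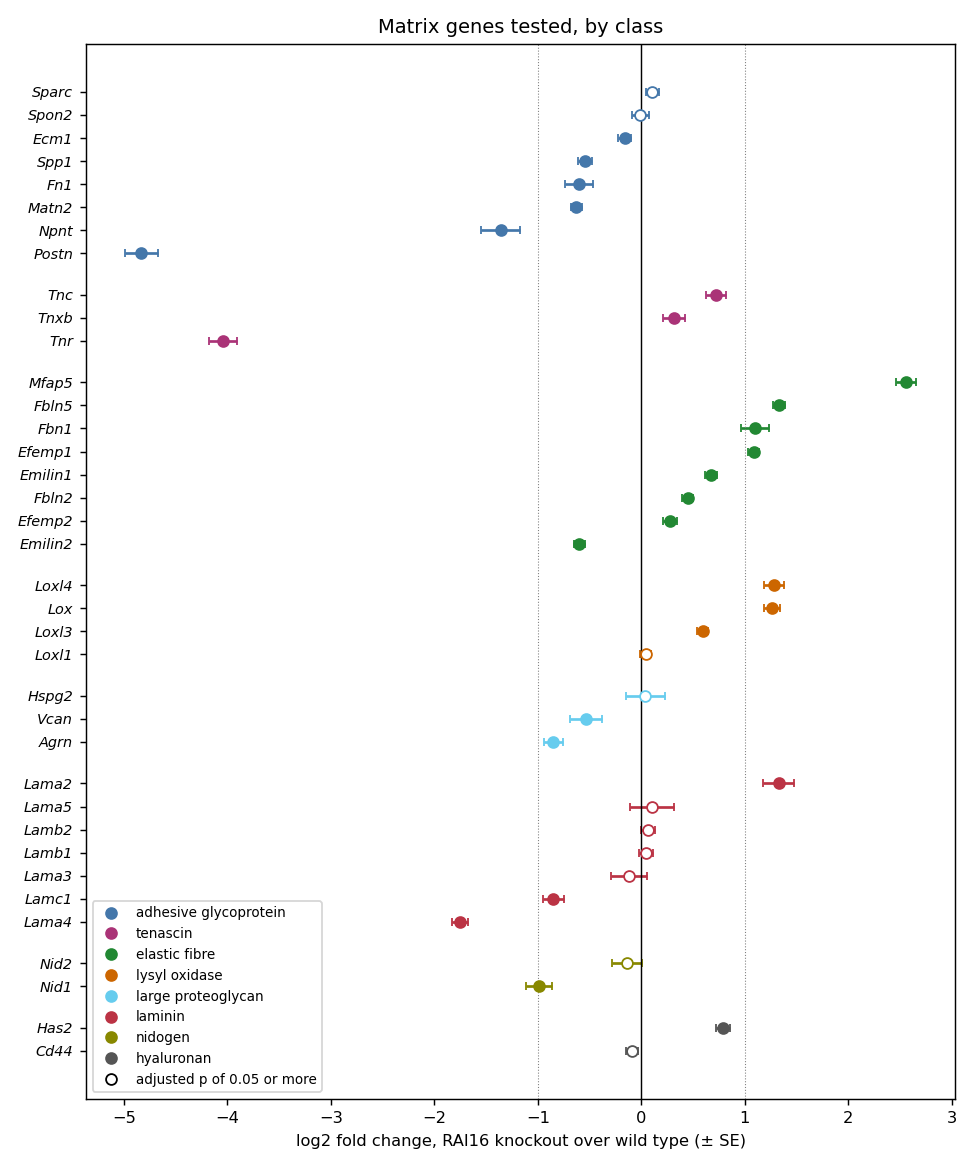
Log2 fold change of knockout over wild type (horizontal axis, ± SE) for the 37 matrix genes tested, coloured by class, with filled points at an adjusted p under 0.05 and dotted lines at 2-fold. Of 8 elastic fibre genes 7 lie to the right of 0, and 6 of the 8 adhesive glycoprotein genes are filled points to the left of it.

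Among the adhesive glycoproteins, 6 of 8 genes tested fell in knockout and 0 rose, where 29.2% of all genes tested fell, with a median log2 fold change of −0.57. Periostin (Postn), a secreted ligand of integrins that also binds other matrix proteins, had 32.3, 30.2 and 30.4 CPM in wild-type replicates 1, 2 and 3 and 1.03, 1.47 and 0.732 CPM in knockout replicates 1, 2 and 3. Every knockout library was far below every wild-type library. The fall was 28.4-fold (log2 fold change −4.83 ± 0.16 SE, adjusted p = 6.36e-08, edgeR), and −5.12 without knockout replicate 2. Postn is 1 of 10 matrix genes tested in which that replicate was the highest of the knockout libraries.

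Nephronectin (Npnt), a basement membrane ligand of the integrin alpha 8 chain, had 10.6, 11.4 and 10.8 CPM in the wild-type libraries and 5.81, 3.49 and 3.43 CPM in the knockout libraries. The groups did not overlap, and knockout replicate 1 lay above the other knockout libraries. The fall was 2.57-fold (−1.36 ± 0.19 on the log2 scale, adjusted p = 2.58e-04, edgeR). The receptor chain gene itself, Itga8, went the other way, from 7.98 ± 1.33 to 33.5 ± 3.70 CPM (SD, n = 3 each).

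Osteopontin (Spp1), a secreted phosphoprotein that binds integrins and CD44, had the highest level of all members per length, 3331 ± 85.7 FPKM in wild type and 2301 ± 150 FPKM in knockout (SD, n = 3 each). Its CPM values were 5529, 5331 and 5257 in wild type and 3511, 3932 and 3604 in knockout, with every knockout library lower. The fall was 1.46-fold (log2 fold change −0.54 ± 0.064 SE, adjusted p = 1.08e-04, edgeR). The 20 genes tested that flank Spp1 on chromosome 5 had a median log2 fold change of −0.61, about the size of its own change.

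Fibronectin (Fn1), which cells assemble into fibrils through integrins, came next in level. It fell from 1658 ± 32.1 to 1098 ± 228 FPKM (SD, n = 3 each). Its knockout libraries had 10219, 6946 and 10422 CPM, so the lowest was replicate 2, and all lay below the wild-type range of 13801 to 14284 CPM. The change was −0.60 ± 0.14 on the log2 scale (adjusted p = 0.00449, edgeR) and −0.44 without knockout replicate 2. Its 20 neighbours on chromosome 1 had a median of −0.42.

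Of the other adhesive glycoproteins, matrilin 2 (Matn2), a filament-forming adaptor of the matrix, fell from 208 ± 0.934 to 135 ± 0.358 CPM. Ecm1, which encodes extracellular matrix protein 1, passed narrowly (log2 fold change −0.16 ± 0.060 SE, adjusted p = 0.0419, edgeR). Leaving out any 1 library other than knockout replicate 2 ended that call, with log2 fold changes from −0.18 to −0.14. Sparc, a collagen-binding matricellular protein with wild-type and knockout means of 692 ± 9.02 and 746 ± 39.5 CPM, did not pass (0.11, 95% interval −0.02 to 0.24), nor did Spon2, the gene of spondin 2 (−0.01, −0.20 to 0.17). Spon1 and Matn4 were below the filter, with at most 9 counts in any library.

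Promoters of 5 of the 11 members that changed at least 2-fold are shown so that their letters can be read beside the values, a choice made after the values were seen. Those of Npnt, Fbln5, Lama2, Mfap5, Lama4 and Lox are not shown. They are RefSeq sequences of the build GRCm38.p6, matched by gene symbol. The submitters' processing notes name GRCm39, so the positions hold for the sequence only. Each is the 250 bases before an annotated start, and of the 50 names, 32 had an entry. Capitals mark any of 5 motifs found on either strand: the TATA box TATAAA, the GC box GGGCGG, the CCAAT box CCAAT, the AP-1-like pattern TGANTCA and the TEAD site GGAATG. The N takes any letter, so that pattern is wider than the AP-1 site. No bases of the printed sequences are shared by matches of different motifs. Over all 32851 promoters of the table, 12.4% hold the TATA box, 32.7% the GC box, 33.8% the CCAAT box, 6.75% the AP-1-like pattern and 12.6% the TEAD site in this window. Of the 45 promoter entries of matrix genes, 5, 24, 10, 3 and 7 hold them in the same order. Tnr, Fbn1, Efemp1 and Loxl4 have 1 entry each. Postn has 2, and for the one printed the bases just after the start were found in a GENCODE transcript of the gene. These are the strongest falls, Postn (chr3:54360857-54361106, plus strand) and Tnr (chr1:159523519-159523768, plus strand), and 3 rises of elastic fibre and cross-linking genes, Efemp1 (chr11:28852955-28853204, plus strand), Fbn1 (chr2:125506439-125506688, minus strand) and Loxl4 (chr19:42612807-42613056, minus strand).
Postn: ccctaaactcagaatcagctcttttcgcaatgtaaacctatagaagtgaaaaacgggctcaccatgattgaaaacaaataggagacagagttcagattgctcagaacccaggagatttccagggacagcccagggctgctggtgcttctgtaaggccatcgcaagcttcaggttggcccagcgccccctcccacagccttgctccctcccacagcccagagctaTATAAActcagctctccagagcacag
Tnr: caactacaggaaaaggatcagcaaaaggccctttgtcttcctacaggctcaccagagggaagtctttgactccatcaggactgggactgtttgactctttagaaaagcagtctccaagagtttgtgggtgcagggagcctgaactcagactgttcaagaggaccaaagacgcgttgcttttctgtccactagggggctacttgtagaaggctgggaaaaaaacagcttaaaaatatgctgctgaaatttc
Efemp1: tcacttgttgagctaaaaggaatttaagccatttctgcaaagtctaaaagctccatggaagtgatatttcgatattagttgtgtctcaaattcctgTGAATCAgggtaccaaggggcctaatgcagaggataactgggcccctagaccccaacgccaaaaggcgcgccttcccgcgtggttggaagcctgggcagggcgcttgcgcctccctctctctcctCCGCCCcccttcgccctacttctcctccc
Fbn1: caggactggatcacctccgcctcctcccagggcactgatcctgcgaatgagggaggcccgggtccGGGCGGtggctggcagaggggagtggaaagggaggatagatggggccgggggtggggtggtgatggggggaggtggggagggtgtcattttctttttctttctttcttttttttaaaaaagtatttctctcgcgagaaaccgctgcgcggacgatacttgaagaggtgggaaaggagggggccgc
Loxl4: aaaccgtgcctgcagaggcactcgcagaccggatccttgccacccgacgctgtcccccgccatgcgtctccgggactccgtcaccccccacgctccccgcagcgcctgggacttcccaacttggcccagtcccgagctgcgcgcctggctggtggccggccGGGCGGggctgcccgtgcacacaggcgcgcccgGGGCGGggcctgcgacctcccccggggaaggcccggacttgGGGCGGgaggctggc
The Postn window holds a TATA box whose first base lies 26 bases before the start. The Tnr window holds none of the 5 motifs, and those of Fbn1 and Loxl4 hold GC boxes alone. That of Efemp1 holds a GC box and a match of the AP-1-like pattern, with A at its N. A match is a run of letters and was not tested as a binding site.

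The 3 tenascins, which modulate cell adhesion, moved in different directions. Tenascin R (Tnr), known mainly from the nervous system, had 45.1, 47.6 and 42.4 CPM in wild type and 3.31, 2.02 and 2.87 CPM in knockout. The groups lay far apart, and the fall was 16.4-fold (−4.04 ± 0.14 on the log2 scale, adjusted p = 7.35e-08, edgeR). Its 20 flanking genes tested on chromosome 1 had a median of −0.60, with 16 lower and 0 higher, so its neighbourhood moved the same way by less. A list of 7 neural and glial markers moved with it: its summed level was 18.5 to 20.7 CPM in wild type and 3.43 to 4.61 CPM in knockout, and Map2, a neuronal microtubule protein gene, was lower. Sox10, Gfap and Rbfox3 had at most 4 counts over the libraries of any group. The part of these markers in the result was not tested.

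Tenascin C (Tnc), the form typical of fibroblasts and wounds, was the most abundant tenascin. It had 305, 283 and 289 CPM in wild type and 520, 409 and 517 CPM in knockout, with every knockout library higher. The rise was 1.65-fold (log2 fold change 0.72 ± 0.094 SE, adjusted p = 1.89e-04, edgeR). Tnxb, the gene of tenascin X, rose by 0.32 ± 0.11 on the log2 scale (adjusted p = 0.0309, edgeR), but its groups overlapped, and leaving out any 1 library other than knockout replicate 2 ended the call (0.24 to 0.35). By share of the summed FPKM of the family, Tnr went from 5.05 ± 0.359% to 0.195 ± 0.0248% and Tnc from 90.9 ± 0.470% to 96.5 ± 0.0913% (SD, n = 3 each). The exact permutation test, 2-sided, gave p = 0.1 for both, the smallest that 3 against 3 libraries allow.

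Of 14 elastic fibre genes listed, 8 were tested, and of these 7 rose and 1 fell, where 30.5% of all genes tested rose, with a median log2 fold change of 0.88. Mfap5, the microfibril glycoprotein MAGP-2 that binds fibrillin, had 17.5, 16.7 and 14.9 CPM in wild type and 88.5, 108 and 91.8 CPM in knockout. The knockout libraries were all several times higher, and the rise was 5.88-fold (log2 fold change 2.56 ± 0.097 SE, adjusted p = 1.44e-07, edgeR). Its 20 neighbours on chromosome 6 had a median of 0.43, with 14 higher and 0 lower.

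Fibulin 5 (Fbln5), which binds elastin and helps to deposit it on microfibrils, had 160, 160 and 170 CPM in wild type and 403, 414 and 414 CPM in knockout. Libraries within each group lay close together, and the rise was 2.51-fold (log2 fold change 1.33 ± 0.055 SE, adjusted p = 2.24e-07, edgeR). Its flanking genes had a median of −0.15, against its own direction. Efemp1, or fibulin 3, had 409, 409 and 422 CPM in wild type and 869, 880 and 883 CPM in knockout, and its groups also lay well apart. It rose 2.12-fold (log2 fold change 1.09 ± 0.052 SE, adjusted p = 5.10e-07, edgeR) and was the elastic fibre gene with the highest level per length, 402 ± 3.68 FPKM in knockout (SD, n = 3).

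Fibrillin 1 (Fbn1), the main subunit of microfibrils, had 113, 119 and 115 CPM in wild type and 269, 190 and 286 CPM in knockout. Every knockout library was higher, with replicate 2 the lowest of them, as in most long genes of the set. The rise was 2.14-fold (log2 fold change 1.10 ± 0.13 SE, adjusted p = 1.25e-04, edgeR), and 1.26 on the log2 scale without knockout replicate 2. Fibrillin 2 (Fbn2) had a single count in all 6 libraries.

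Smaller rises were found for Emilin1, an elastin and microfibril interface protein (log2 fold change 0.68 ± 0.056 SE), for fibulin 2 (Fbln2, 0.45 ± 0.055) and for fibulin 4 (Efemp2, 0.28 ± 0.068), which is needed for elastin cross-linking. For Fbln2 the flanking genes on chromosome 6 had a median of 0.47, as large as its own change. Emilin2 was the exception and fell from 288 ± 8.24 to 190 ± 3.16 CPM (−0.60 ± 0.054). Some other elastic fibre genes were near the detection limit. Elastin (Eln), the core protein, had 9 counts in knockout replicate 2 and 0 counts in each of the other 5 libraries. There, 0 counts allow up to 0.163 to 0.18 CPM (3 counts, counting error only). Mfap4 had at most 8 counts in any library, and Fbln7 had 1 count in all. Fibulin 1 (Fbln1) was counted 1, 1 and 7 times in the wild-type libraries and 10, 21 and 12 times in the knockout libraries, and was below the filter. It was called higher when no filter was applied and by DESeq2.

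**Figure D3:**
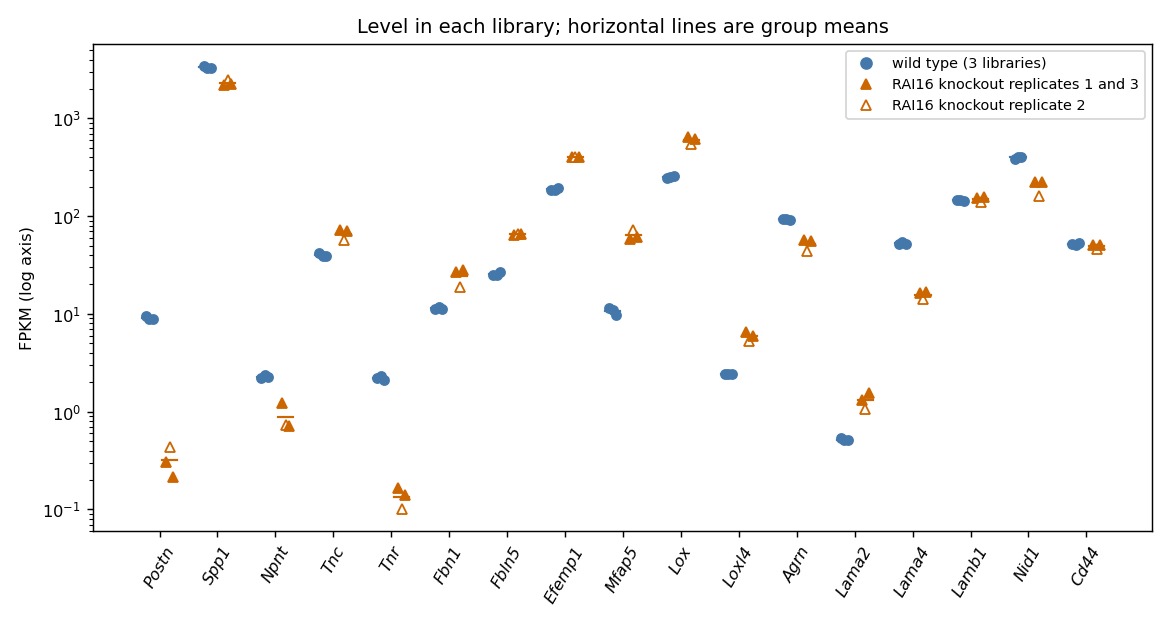
FPKM (vertical, log axis) in each of the 6 libraries for the 11 matrix genes that changed at least 2-fold and the gene of highest level in each class, with wild type as circles, knockout as triangles (replicate 2 hollow) and group means as horizontal lines. The groups lie apart for Postn, Tnr, Mfap5 and Lama4, and lie close together for Lamb1 and Cd44.

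Lysyl oxidases, the copper enzymes that start cross-links in collagen and elastin, rose in 3 of 4 genes tested and fell in 0, where 30.5% of all genes tested rose. Lox had 1112, 1157 and 1174 CPM in wild type and 2942, 2478 and 2834 CPM in knockout. All knockout libraries lay well above every wild-type value, and the rise was 2.40-fold (log2 fold change 1.26 ± 0.074 SE, adjusted p = 1.77e-06, edgeR). Its 20 neighbours on chromosome 18 had a median of 0.01. Loxl4 had 13.5, 13.5 and 13.6 CPM in wild type and 36.4, 28.9 and 33.2 CPM in knockout. Its groups did not overlap either, and the rise was 2.43-fold (1.28 ± 0.097, adjusted p = 7.62e-06, edgeR).

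Loxl3 rose from 102 ± 3.41 to 154 ± 1.47 CPM (SD, n = 3 each), or by 0.59 ± 0.055 on the log2 scale, and its flanking genes on chromosome 6 had a median of 0.49. Loxl1, which is targeted to elastic fibres through fibulin 5, went from 256 ± 5.03 to 263 ± 3.42 CPM and did not pass (0.04, 95% interval −0.08 to 0.16). Loxl2 had at most 3 counts in any library. Per length the order was Lox, Loxl1, Loxl3, Loxl4 in every library. The summed FPKM of the family went from 354 ± 8.09 to 729 ± 49.7, the share of Lox from 70.8 ± 0.473% to 83.1 ± 1.37% and that of Loxl1 from 21.5 ± 0.579% to 10.9 ± 0.961% (SD, n = 3 each). The shares did not overlap between groups (exact permutation test, 2-sided, p = 0.1, the smallest this design allows).

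Among the fibulins, read the same way, Efemp1 went from 46.9 ± 0.217% to 56.2 ± 0.130% of the summed FPKM and Fbln5 from 6.42 ± 0.122% to 9.12 ± 0.0907%, while Fbln2 went from 31.0 ± 0.184% to 23.9 ± 0.976% and Efemp2 from 15.6 ± 0.130% to 10.7 ± 0.831% (SD, n = 3 each). Fbln2 and Efemp2 thus took a smaller share although both rose. Each of these 4 shares had p = 0.1 in the exact permutation test, 2-sided, again the smallest possible. The 7 families tested for shares held 25 genes, and no adjustment over them can pass at this number of libraries.

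**Figure D4:**
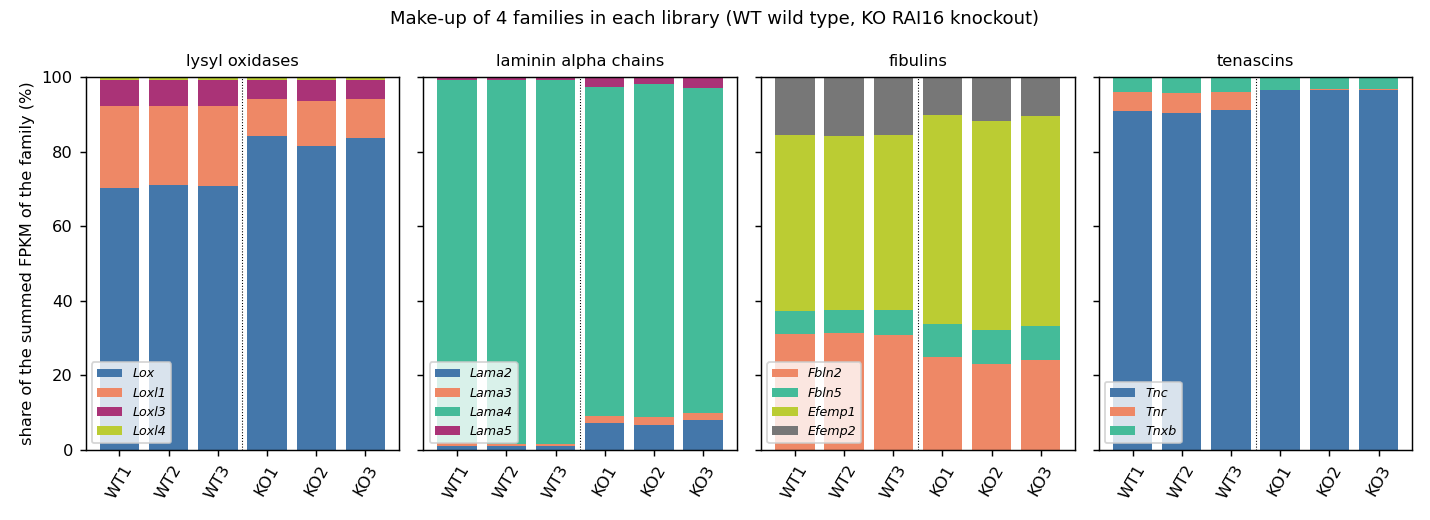
Share of the summed FPKM of a family held by each gene (vertical axis, %, stacked bars) in each of the 6 libraries, for 4 families and without genes that stay under 0.1%. Lox takes 70.2 to 71.2% of its family in wild type and 81.5 to 84.1% in knockout, and Lama4 takes 97.4 to 97.7% and 87.3 to 89.3% of its own.

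Laminin genes moved unevenly by chain. Of 7 tested, 1 rose, 2 fell and 4 did not pass, so 42.9% were called against 59.6% of all genes tested. Lama4, the alpha 4 chain of mesenchymal and vascular laminins, had 316, 328 and 317 CPM in wild type and 97.5, 84.7 and 103 CPM in knockout. Every knockout library was far below every wild-type library, and the fall was 3.37-fold (log2 fold change −1.75 ± 0.077 SE, adjusted p = 3.13e-07, edgeR). Its neighbours on chromosome 10 had a median of −0.07. Lama2, the alpha 2 chain typical of muscle, rose from a low level, with 6.36, 6.05 and 6.09 CPM in wild type and 15.7, 12.5 and 18.3 CPM in knockout. The groups did not overlap, and the rise was 2.51-fold (1.33 ± 0.15, adjusted p = 7.47e-05, edgeR), or 1.46 on the log2 scale without knockout replicate 2.

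Some smooth and skeletal muscle markers moved in the same direction as Lama2. The summed level of the list was 67.5 to 72.1 CPM in wild type and 91.4 to 118 CPM in knockout, with 2 of 3 tested genes higher (Acta2 and Tagln), and without knockout replicate 2 the knockout sums were 97.7 and 91.4 CPM. Desmin (Des) did not pass, with 8, 82 and 3 counts in the knockout libraries, and all 31 counts of Actc1 were in knockout replicate 2. Myog had 1 count in all. The part of these markers in the result was not tested. Lama3 and Lama5, chains of epithelial laminins, were low, with knockout means of 4.17 ± 0.249 and 5.44 ± 1.63 CPM. Neither passed (−0.12, 95% interval −0.51 to 0.27, and 0.10, −0.39 to 0.59). Without knockout replicate 2, Lama5 gave 0.33 and did not pass either. Per length, Lama4 was the main alpha chain in every library, with 52.7 ± 1.11 FPKM in wild type and 15.7 ± 1.44 FPKM in knockout. Its share of the alpha chains went from 97.6 ± 0.178% to 88.2 ± 0.978%, and that of Lama2 went from 0.955 ± 0.0397% to 7.28 ± 0.603% (SD, n = 3 each; exact permutation test, 2-sided, p = 0.1 for both).

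The partner chains of the trimer did not move as one. Lamb1, the beta 1 chain and the laminin with the highest level per length, had 865, 856 and 843 CPM in wild type and 902, 812 and 930 CPM in knockout. These groups overlapped, with knockout replicate 2 below and the other knockout libraries above every wild-type library, and the test did not pass (log2 fold change 0.04, 95% interval −0.10 to 0.19). Without knockout replicate 2 it passed at 0.10. Lamb2 gave 0.06 (−0.09 to 0.21) with all libraries and passed at 0.10 without that replicate. Lamb1 held 85.3 ± 0.458% of the beta chain FPKM in wild type and 85.1 ± 0.859% in knockout (exact permutation test, 2-sided, p = 0.8), a difference within the spread between libraries. Lamc1, the common gamma 1 chain, fell from 563 ± 9.75 to 312 ± 46.8 CPM (SD, n = 3 each). That is −0.85 ± 0.10 on the log2 scale (adjusted p = 1.09e-04, edgeR), and −0.73 without knockout replicate 2. Its neighbours on chromosome 1 had a median of −0.42. Of Lamb1, Lamc1 and Lama4 the order by FPKM was the same in both groups, at 146, 73.5 and 52.7 in wild type and 151, 41.1 and 15.7 in knockout. Lamb3 had at most 7 counts in any library.

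Nidogen 1 (Nid1), which links laminin to type IV collagen, had 2356, 2462 and 2449 CPM in wild type and 1354, 952 and 1364 CPM in knockout. All knockout libraries were lower, replicate 2 most of all. The fall was 1.98-fold (log2 fold change −0.99 ± 0.12 SE, adjusted p = 1.64e-04, edgeR), or −0.83 without knockout replicate 2. Its 20 neighbours on chromosome 13 had a median of −0.60, with 14 lower. Nid2 was low, at 3.93 ± 0.388 and 3.57 ± 0.104 CPM, and did not pass (−0.14, 95% interval −0.47 to 0.20).

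Of the large proteoglycans, 2 of 3 tested fell and 0 rose, where 29.2% of all genes tested fell. Agrin (Agrn), a heparan sulfate proteoglycan of basement membranes, had 852, 852 and 844 CPM in wild type and 513, 398 and 503 CPM in knockout. The groups did not overlap, and the fall was 1.80-fold (log2 fold change −0.85 ± 0.092 SE, adjusted p = 6.53e-05, edgeR). Versican (Vcan) had 817, 865 and 855 CPM in wild type and 657, 421 and 675 CPM in knockout. It fell by 0.53 ± 0.15 on the log2 scale (adjusted p = 0.0146, edgeR) and by 0.34 without knockout replicate 2, and without wild-type replicate 3 the call was lost at −0.53.

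Perlecan (Hspg2), the other heparan sulfate proteoglycan of this set, depended on 1 library. It had 571, 581 and 576 CPM in wild type and 701, 383 and 691 CPM in knockout. Knockout replicates 1 and 3 lay above every wild-type library and replicate 2 below them all. With all libraries the test did not pass (log2 fold change 0.04, 95% interval −0.39 to 0.47), and without knockout replicate 2 the gene passed as higher at 0.27. Hspg2 was also the matrix gene with the largest drop in that replicate, by 0.86 on the log2 scale. Aggrecan (Acan), the cartilage proteoglycan, had at most 2 counts in any library. The chondrocyte and osteoblast markers were lower in knockout, from 402 to 436 CPM in wild type and 256 to 282 CPM in knockout as a sum, led by Sox9 and Runx2. Their defining gene Col2a1 had 0 counts over the wild-type libraries and 5 over the knockout ones.

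Hyaluronan genes were represented by synthases and a receptor. Has2, a hyaluronan synthase, rose from 49.8 ± 1.76 to 85.8 ± 5.81 CPM (SD, n = 3 each), or by 0.78 ± 0.068 on the log2 scale (adjusted p = 1.62e-05, edgeR). Its neighbours on chromosome 15 had a median of −0.26, against its own direction. Has1 had at most 5 counts in any library and was below the filter. Has3, another synthase, which is in the partner list and is named after its values were seen, went the other way at a lower level, from 3.35 ± 0.293 to 0.897 ± 0.436 CPM (−1.89 ± 0.29 on the log2 scale, adjusted p = 5.45e-04, edgeR). Cd44, the surface receptor for hyaluronan and the gene of highest level in this class, had 302, 295 and 308 CPM in wild type and 292, 263 and 295 CPM in knockout. The knockout libraries lay just below the wild-type ones, and the test did not pass (−0.09, 95% interval −0.23 to 0.05).

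Each member was also set beside the 20 genes tested that flank it on its chromosome, 10 on each side (15 in all for Agrn). A neighbour median of at least 0.5 in size was found for 6.11% of all genes tested and for 3 members, Spp1, Tnr and Nid1. Of the 11 members that changed at least 2-fold, Tnr alone had such a median in its own direction. This count depends on the window and the cut: with 5 genes on each side Mfap5 (0.58) joined Tnr (−0.69). With 20 on each side none of the 11 reached 0.5, Tnr included (−0.45), though 33 of its neighbours were lower and 0 higher. Over that window Fn1 (−0.43) and Lamc1 (−0.45), also on chromosome 1, had medians in their own direction. So did Fbln2 (0.46), Mfap5 (0.30) and Loxl3 (0.53) on chromosome 6. Other members, such as Fbln5 (−0.26) and Has2 (−0.27), had medians against their own change. With 10 genes on each side, some members lay beside neighbours whose median was near 0. Among them were Postn (0.05), Npnt (0.03), Fbn1 (0.10), Efemp1 (0.09), Lox (0.01), Lama2 (0.0076) and Lama4 (−0.07). Whether a neighbourhood shift forms part of a member's change was not tested.

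**Figure D5:**
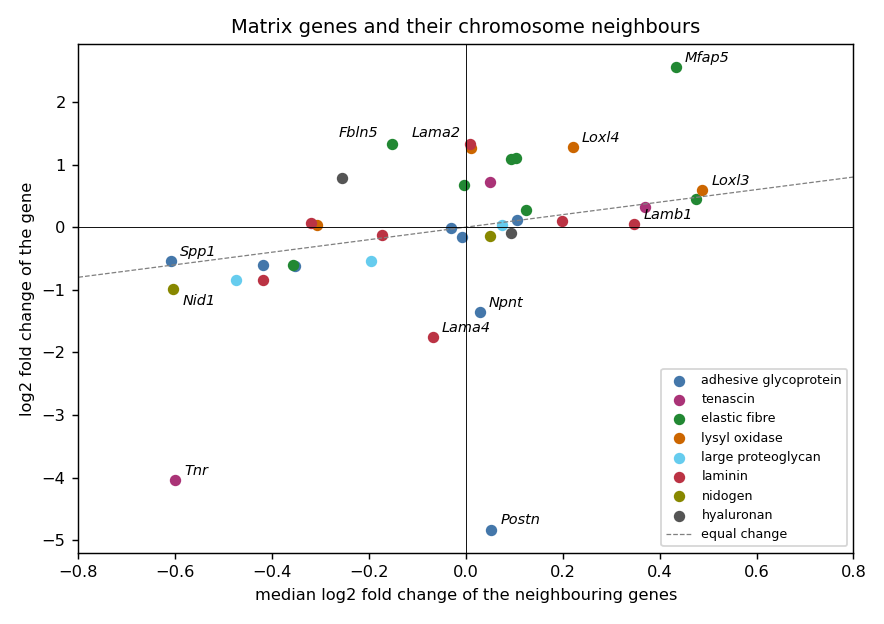
Log2 fold change of each matrix gene tested (vertical axis) against the median log2 fold change of its flanking genes, 10 on each side where present (horizontal axis), coloured by class, with a dashed line at equal change. Spp1 and Loxl3 lie near that line, whereas Postn, Lama4, Lama2 and Npnt lie far from it with neighbour medians close to 0.

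Other genes of the same pathways were counted in 5 lists that hold 116 names, of which 83 were tested. In all, 30 rose and 26 fell (67.5%, against 59.6% of all genes tested). The lists, too, were chosen with earlier results of these data known. Among 17 microfibril and elastic fibre partners, 7 rose and 3 fell. Among those with at least 5 CPM, the latent TGF-beta binding protein genes moved in both directions: Ltbp4 fell from 42.0 ± 2.97 to 10.4 ± 0.841 CPM and Ltbp2 from 526 ± 13.8 to 249 ± 23.1 CPM, while Ltbp3 rose from 336 ± 9.40 to 448 ± 7.53 CPM (SD, n = 3 each). Adamtsl5, of the ADAMTS-like family, rose by 0.87 ± 0.062 on the log2 scale. The largest change of this list was in Adamtsl1, of the same family, at 1 to 3 counts in the wild-type libraries and 14 to 18 in the knockout ones. Ltbp3 and Adamtsl1 are named after their values were seen.

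Of 20 laminin and fibronectin receptor genes, 6 rose and 8 fell (70.0% called, against 59.6% of all genes tested). Beside Itga8 (log2 fold change 2.07 ± 0.13 SE), the alpha chain of a laminin-binding integrin, Itga3, rose from 24.7 ± 2.21 to 61.5 ± 5.85 CPM, whereas Itga6, of another laminin-binding integrin, fell from 97.9 ± 1.21 to 42.3 ± 5.43 CPM. Of 16 basement membrane partners, 6 rose and 3 fell (56.25% called, below the 59.6% of all genes tested). Col18a1, a basement membrane collagen, fell from 8.39 ± 0.753 to 3.08 ± 0.194 CPM (−1.44 ± 0.13 on the log2 scale).

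Among 16 genes of hyaluronan turnover and of versican partners, 6 rose and 5 fell (68.75% called, against 59.6% of all genes tested). Hapln4, a link protein that ties proteoglycans to hyaluronan, rose from 11.7 ± 1.49 to 34.1 ± 1.13 CPM, and Adamts1, a protease that cuts versican, from 39.1 ± 0.896 to 99.8 ± 13.3 CPM (SD, n = 3 each). Chsy1, a chondroitin sulfate synthase, fell by 0.90 ± 0.066 on the log2 scale. Among 14 other matricellular genes, 5 rose and 7 fell (85.7% called). Their median size was 1.97 on the log2 scale, against 0.32 over all genes tested. Sparcl1, a relative of Sparc, fell from 29.1 ± 1.58 to 2.31 ± 0.645 CPM, while Thbs1 (thrombospondin 1) rose by 4.06 ± 0.12 and Tgfbi by 3.23 ± 0.092 in log2 units. Apart from Has3, Ltbp3 and Adamtsl1, the adjusted p of the 13 partner genes named here ran from 2.73e-08 to 2.55e-05 (edgeR). None of their groups overlapped, where 67.6% of all genes tested had no overlap. These genes were picked as called and of large change, so both statements follow from the choice.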

How the data were processed

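Per the labels' protocols, RNA was extracted with TRIzol and libraries were made with a stranded TruSeq mRNA kit. The submitters' processing notes name HTSeq, DESeq, HISAT2, Trimmomatic and Cufflinks and the build GRCm39. The sources used here do not give their roles, versions or strand setting, so reads of overlapping antisense genes may be included. The authors deposited raw read counts per gene and FPKM values for the same 16000 genes. Groups come from the sample titles. The deposited FPKM equals the count divided by library total and a single length per gene to within 8.04e-05%, and that length was used here. The filter filterByExpr kept 11972 genes, TMM set the scaling, and edgeR 4.0.16 under R 4.3.3 gave the quasi-likelihood test with Benjamini-Hochberg adjustment over all of them, after a trial on simulated counts. Each SE is the size of the log2 change over the root of its F statistic. Totals ran from 16741607 to 18368760 counts per library. Neighbours come from RefSeq gene order on GRCm38.p6, for 11941 genes tested. Shares within families used FPKM and an exact permutation test. Replicate numbers were not treated as pairs, since the titles name no pairing. The deviations of same-numbered libraries correlated at −0.09, −0.11 and 0.02, and those of other pairs from −0.10 to 0.12. Such values cannot settle whether libraries were paired.

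The members and gene lists were chosen with earlier results of these data known. Values of every library are given for members called at 2-fold or more with a mean of at least 5 CPM and for the member of highest FPKM in each class. From each partner list up to 3 called genes of largest change with at least 5 CPM are named, and some genes that this rule or the marker lists select are not reported here. Fn1, Vcan and Hspg2 were added after their values were seen. DESeq2 1.42.0, other scalings, other filters, a replicate block and leaving out each library were tried. The markers were lists of fibroblast, epithelial, endothelial, leukocyte, muscle, skeletal and neural genes.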

Additional observations from a re-analysis of the deposited data

How the results depend on the processing

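RLE scaling, upper quartile scaling, no filter, a filter at 5 CPM, DESeq2 1.42.0 and a length-trend offset, chosen after seeing the data, left each of the 27 called members in its direction. The replicate block gave 14 members higher and 12 lower, though the titles name no pairing. The same-numbered deviations correlated at −0.09, −0.11 and 0.02, which cannot settle whether libraries were paired. Under the replicate block, upper quartile scaling and no filter, Ecm1 alone lost its call (−0.16, −0.15 and −0.16). Leaving out 1 library gave 13 to 18 members higher and 11 to 13 lower. By class, it gave 0 to 1 adhesive glycoproteins higher, 1 to 2 tenascins higher, 0 to 1 large proteoglycans higher, 1 to 2 large proteoglycans lower and 1 to 3 laminins higher. The length-trend offset gave 3 laminins higher, with Lamb1 (0.11) and Lamb2 (0.13) added. At 5 CPM, 3 hyaluronan and lectican partners and 4 other matricellular genes were lower, since fewer genes are tested there. Shares of raw counts in place of FPKM moved the knockout minus wild type difference to 10.3 points for Lox, −16.1 for Lama4, 7.21 for Efemp1 and 12.8 for Tnc, against 12.3, −9.32, 9.34 and 5.67, because counts weight genes by length. Members changed at least 2-fold with a same-direction neighbour median of at least 0.5 numbered 2 with 5 and 0 with 20 genes on each side, against 1 with 10. Genes with few counts, such as Eln, Has1 and Loxl2, cannot be compared at this depth.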
